A study of Rattus norvegicus with 138 samples.

Results

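The interleukin-1 (IL-1) family genes of rat tibialis anterior (TA) muscle were described after volumetric muscle loss (VML), the removal of a block of muscle too large for the tissue to replace by itself. The members were 10 of the 16181 gene symbols in the expression table, taken from the table by their symbols: the ligands Il1a, Il1b, Il18 and Il33, the antagonist Il1rn, the receptor chains Il1r1, Il1r2, Il1rap and Il1rl1, and the protease Casp1. Expression was in TPM, the share of a library's transcripts that a gene holds after division by transcript length. Of the 10 members, 9 reached a mean of 1 TPM in at least 1 group and were tested among 11328 genes, and Il1a did not.

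Inbred male Lewis rats, about 4 months old, had part of the middle of the left TA removed with a biopsy punch. The defect was left non-repaired (NR) or was filled with minced muscle graft (MMG), the excised tissue cut up and returned to the same animal. Muscles were taken 3, 7, 14 or 28 days post-injury (DPI), and some rats of both arms carried the label of running, for which no regimen is given in the sources used here. The uninjured TA of the other leg of the same rats served as the contralateral muscle, and the control group was labelled as sham at day 0. After 13 libraries with 901 to 5712 symbols above 1 TPM had been left out, 116 libraries of 114 muscles remained, with 7866 to 10948 symbols above 1 TPM. The series held 80 operated and 2 control rats, and the operated count includes rats whose samples entered no group. Non-repaired injured muscles numbered 3, 8, 4 and 4 at 3, 7, 14 and 28 DPI, and graft-filled ones 7, 8, 4 and 4. The 4 control muscles were both TA muscles of 2 rats from a different number series, so that the series and the injury cannot be told apart in any comparison with control. TPM holds no read depth, and the depth of each library is therefore unknown. As a check of the tissue, 10 muscle fibre markers summed to between 190262 and 223677 TPM in the control muscles.

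IL-1 alpha and IL-1 beta signal through IL1R1 paired with the accessory chain IL1RAP, the pairing that passes the signal on to MYD88 and NF-kB. IL1RN occupies IL1R1 without signalling, and IL1R2 is a decoy that binds ligand but has no signalling domain. IL-33 is a nuclear alarmin released from damaged stromal cells and is read by ST2, the product of Il1rl1, while IL-18 has its own receptor and, like IL-1 beta, is matured by CASP1. In muscle, infiltrating myeloid cells are a known source of IL-1 beta and fibro-adipogenic progenitors of IL-33, to which regulatory T cells that bear ST2 respond.

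Promoter sequences are shown for 5 members, to set Il1a, which stayed below 1 TPM, beside its neighbour Il1b and to show a ligand, its receptor and the main signalling receptor. Each is the 250 bases before a RefSeq start in the GRCr8 build, written 5′ to 3′ on the gene's strand, while the expression table was made with rat build 6.0. Il1a and Il1b lie on the minus strand at chr3:136990018-136990267 and chr3:137036582-137036831. Il1r1 and Il1rl1 lie on the plus strand at chr9:50034133-50034382 and chr9:50203388-50203637, and the second of the Il33 starts, also on the plus strand, at chr1:237134696-237134945. Capitals mark every match, on either strand, to the motifs of AP-1 (TGANTCA), STAT (TTCNNNGAA), C/EBP (TTGCNNAA) and NF-kB or to the core promoter box (TATAAA), and no matches overlapped.
Il1a: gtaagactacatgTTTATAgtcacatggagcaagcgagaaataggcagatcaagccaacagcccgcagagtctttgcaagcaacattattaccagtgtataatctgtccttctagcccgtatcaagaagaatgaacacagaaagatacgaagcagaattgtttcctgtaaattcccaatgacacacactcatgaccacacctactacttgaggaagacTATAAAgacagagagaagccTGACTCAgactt
Il1b: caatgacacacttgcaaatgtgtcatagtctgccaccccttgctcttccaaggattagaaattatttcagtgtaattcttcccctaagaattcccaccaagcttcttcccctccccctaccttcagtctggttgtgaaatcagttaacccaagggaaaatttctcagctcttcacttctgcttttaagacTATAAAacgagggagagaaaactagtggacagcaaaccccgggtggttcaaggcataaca
Il33: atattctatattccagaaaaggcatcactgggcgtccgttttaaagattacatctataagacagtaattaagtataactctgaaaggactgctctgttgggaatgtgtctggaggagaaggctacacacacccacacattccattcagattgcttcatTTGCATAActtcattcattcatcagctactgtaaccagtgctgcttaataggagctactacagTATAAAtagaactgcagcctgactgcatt
Il1r1: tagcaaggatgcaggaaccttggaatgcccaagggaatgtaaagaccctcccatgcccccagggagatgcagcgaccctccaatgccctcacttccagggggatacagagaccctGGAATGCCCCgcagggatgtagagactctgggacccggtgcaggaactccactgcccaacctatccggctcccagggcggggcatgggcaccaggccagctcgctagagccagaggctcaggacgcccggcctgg
Il1rl1: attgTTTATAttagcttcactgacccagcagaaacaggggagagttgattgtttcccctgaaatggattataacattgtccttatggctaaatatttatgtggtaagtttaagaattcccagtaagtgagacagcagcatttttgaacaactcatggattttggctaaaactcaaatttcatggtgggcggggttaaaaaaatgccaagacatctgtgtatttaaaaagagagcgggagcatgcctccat

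In these windows Il1a held an AP-1 match, a TATAAA and its reverse complement TTTATA, and Il1b held a TATAAA. The Il33 window held a C/EBP match, TTGCATAA, and a TATAAA, whereas the upstream Il33 start held none of the 5 motifs. Il1r1 held the NF-kB match GGAATGCCCC, and both Il1rap starts held another, GGGAAGCCCC. Il1rl1 and Il1rn each held a TTTATA, and the Il18 and Casp1 windows held no match. Of 33469 rat promoters of the same length, 6.34% held an AP-1 match, 6.325% an NF-kB match, 7.667% a STAT match, 9.217% a C/EBP match and 12.93% a TATAAA match. The 9 members found had 11 windows in the promoter table, which did not list Il1r2. A match is a description of these letters and does not show a bound site.

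The first question was how the family changed in the non-repaired defect against control muscle. At 3 DPI all 9 tested members were called higher, where a call required an adjusted p below 0.05 and a log2 fold change above 1 (limma on log2(TPM + 1)). Over the 11328 genes, 52.6% were called in either direction and 48.3% higher, so a call by itself set the members little apart. Their median log2 fold change was 3.17, against 0.96 over all genes. At 7 DPI all 9 were called higher, with 48.1% of all genes called and 45.6% higher, and the members' median was 2.69 against 0.91. At 14 DPI 8 members were called higher, with 25.5% of all genes called and 25% higher. At 28 DPI it was 5 members, with 21.3% of all genes called and 21.1% higher. The members' medians on those days were 1.55 and 1.23, against 0.53 and 0.52 over all genes. On each of the 4 days every injured muscle lay above every control muscle for all 9 members, but the same held for 69.9%, 66%, 58.9% and 60.2% of all genes, and 77.4%, 70.6%, 64.4% and 63.5% did not overlap in either direction. The overall shift moved with the scaling: with median-of-ratios size factors the median of all genes against control was 0.09 at 3 DPI, and the share of calls that were higher changed from 91.9% to 59.2%. At 7, 14 and 28 DPI that share changed from 95%, 97.9% and 99.0% to 60.6%, 72.9% and 78.4%. With that scaling all 9 members were still called at 3 DPI, with log2 fold changes from 1.05 (Il1rap) to 5.24 (Il1rl1). In bulk tissue, fewer cells of a type and less RNA per cell cannot be told apart.

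**Figure D1:**
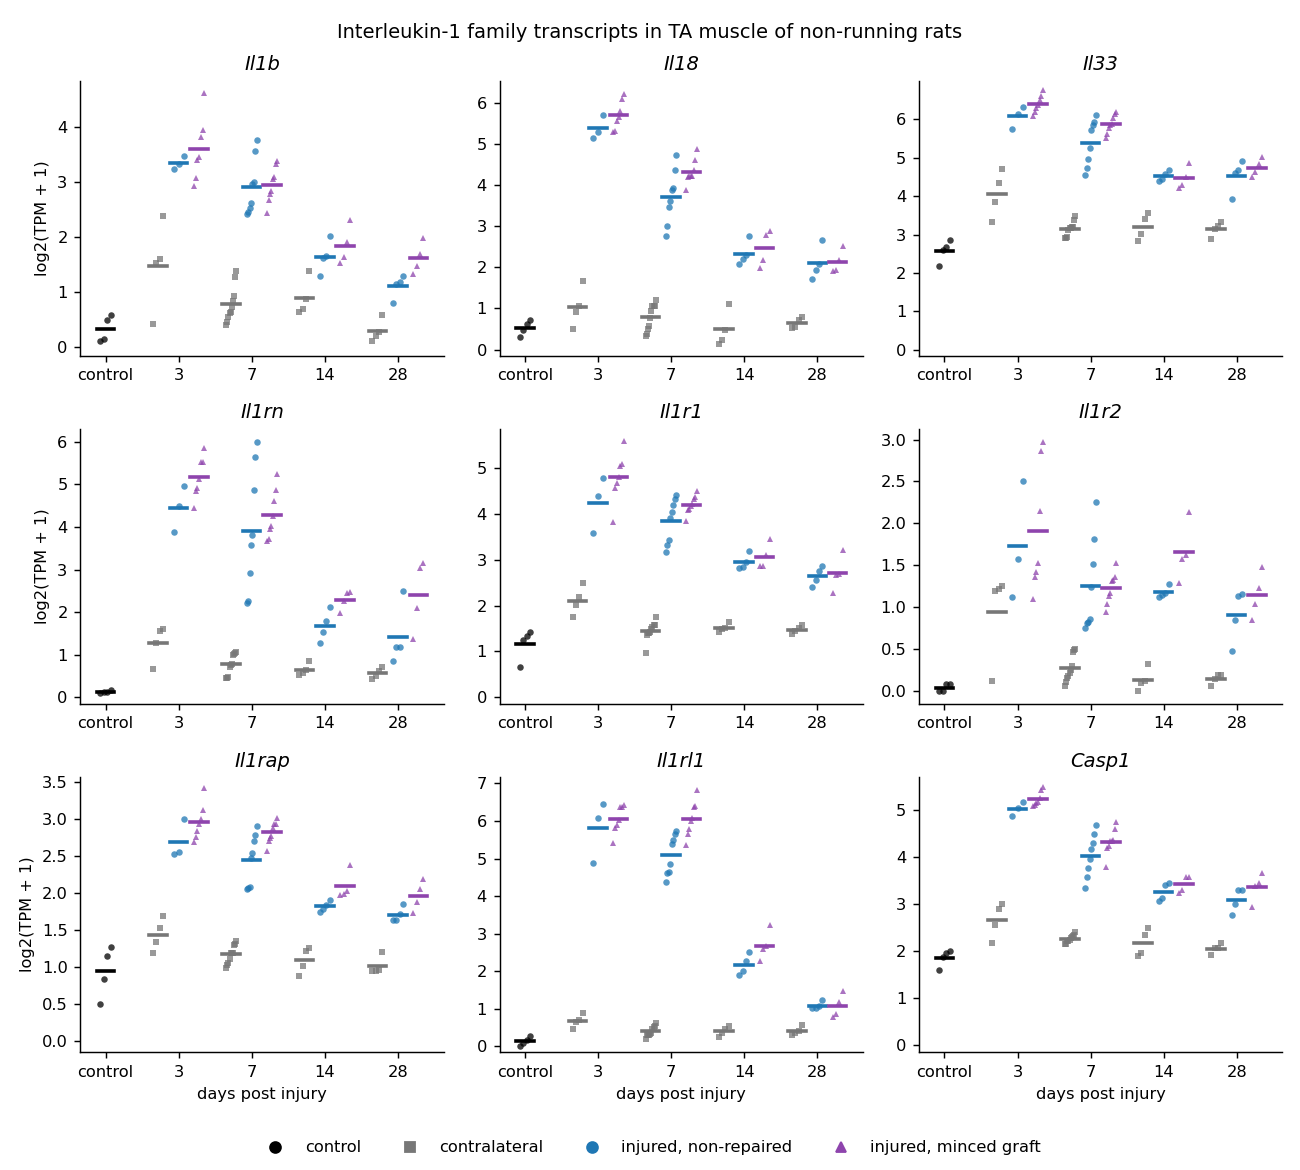
Log2(TPM + 1) of the 9 tested members in control muscles and, by DPI, in contralateral, non-repaired and graft-filled muscles of non-running rats, with 1 point per muscle and a bar at the mean. All of these members stood above control in injured muscle on each day, and the Il1rl1 and Il18 points dropped most between 3 and 28 DPI. Il1a is not drawn.

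Among the ligands, Il1a, the alarmin form of IL-1, was at or near 0 throughout. It was at most 0.03 TPM in every control and contralateral muscle and 0.09, 0.18 and 0.10 TPM in the non-repaired muscles at 3 DPI. Its highest value, 0.80 TPM, was in 1 graft-filled muscle of a running rat at 3 DPI. Values this low support no fold change, and none is given.

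Il1b, the secreted cytokine of myeloid cells, was 0.51, 0.08, 0.42 and 0.11 TPM in the control muscles and 10.21, 8.42 and 9.15 TPM in the non-repaired muscles at 3 DPI. The injured values lay close together, far above control, and the log2 fold change was 3.01 (SE 0.350, adjusted p = 7.42e-13). At 7 DPI it ranged from 4.37 to 12.73 TPM with a median of 6.04, and the log2 fold change was 2.58. It was 2.15, 2.10, 3.07 and 1.45 TPM at 14 DPI (1.31 on the log2 scale). At 28 DPI the non-repaired muscles held 1.28, 0.75, 1.46 and 1.23 TPM. These did not overlap control, but the log2 fold change of 0.77 (SE 0.324, adjusted p = 0.0283) was under the size required for a call. With a pseudocount of 0.1 Il1b was called at 28 DPI, as were 37.6% of all genes.

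Il18, the CASP1-dependent cytokine that drives interferon gamma in lymphocytes, had the largest log2 fold change of the ligands at 3 DPI. In mean TPM the rise of Il33 was larger. It went from 0.54, 0.65, 0.38 and 0.24 TPM in control to 51.47, 38.51 and 34.77 TPM at 3 DPI, a log2 fold change of 4.86 (SE 0.306, adjusted p = 2.74e-26). It was also the member that fell soonest. The mean went from 41.6 ± 8.76 TPM (SD, n = 3) at 3 DPI to 13.5 ± 6.58 (SD, n = 8) at 7 DPI, and 7 DPI was 1.66 lower than 3 DPI on the log2 scale (SE 0.271, adjusted p = 4.49e-07). Il18 was the only member called between those days, where 7.34% of all genes were called, and Casp1 missed the size required by a small margin. The count was 3 without the 3 DPI muscle of rat 18 and 2 without the 7 DPI muscle of any of rats 11, 12, 19 and 20. The non-repaired rats of this 3 DPI group were all numbered under 33, and among 7 DPI rats of that range alone the Il18 step was -1.16 (adjusted p = 0.00635), still a call, with 5.36% of all genes called. At 28 DPI it held 2.27, 3.21, 2.86 and 5.34 TPM, still above control by 1.57 (SE 0.283, adjusted p = 1.22e-06).

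Il33, the ligand of ST2, was the only ligand with a clear level in control muscle, at 5.0, 5.42, 6.30 and 3.50 TPM. At 3 DPI it was 69.79, 78.74 and 52.96 TPM, a log2 fold change of 3.50 (SE 0.269, adjusted p = 2.91e-21). Between 14 and 28 DPI no difference in Il33 was found, which does not show equal levels. The muscles held 20.63, 20.03, 24.42 and 22.67 TPM at 14 DPI and 14.26, 23.22, 24.52 and 29.13 TPM at 28 DPI, and the difference between these days was 0.01 on the log2 scale (95% interval -0.48 to 0.51). Its log2 fold change over control at 28 DPI was still 1.95 (SE 0.249, adjusted p = 1.26e-10), the largest of the 9 members on that scale. The order depended on the scale, since Il33 and Il18 were both at 1.38 with size factors, and with a pseudocount of 0.1 Il33 was at 2.13 and Il1rn was the largest at 3.14.

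The antagonist Il1rn was near 0 in control, at 0.09, 0.09, 0.12 and 0.07 TPM, and rose to 30.20, 13.80 and 21.41 TPM at 3 DPI (log2 fold change 4.32, SE 0.565, adjusted p = 6.00e-11). It was uneven at 7 DPI, where the 8 non-repaired muscles ran from 3.66 to 62.94 TPM with a median of 12.01, and the log2 fold change was 3.79. Its level was 2.23 lower on the log2 scale at 14 than at 7 DPI (SE 0.453, adjusted p = 1.64e-05). At 28 DPI 3 of the 4 muscles held 1.27, 0.80 and 1.27 TPM and the other 4.67 TPM. The log2 fold change against control was then 1.30 (SE 0.523, adjusted p = 0.0221), and the adjusted p was 0.0722 when the muscles of each control rat were averaged, which ended the call.

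Of the receptors for IL-1 itself, Il1r1 rose from 1.39, 1.69, 1.52 and 0.57 TPM in control to 10.96, 26.60 and 20.02 TPM at 3 DPI (log2 fold change 3.09, SE 0.272, adjusted p = 3.48e-18). It remained called at 28 DPI, at 4.86, 5.79, 4.29 and 6.26 TPM (1.48 on the log2 scale, adjusted p = 3.60e-07). Il1rap is the shared accessory chain of these receptors. Its log2 fold change was 1.75 at 3 DPI and 1.51 at 7 DPI, and at 14 and 28 DPI it was 0.88 and 0.77, under the size required. The 7 DPI value fell to 0.87 with size factors, which ended its call. The decoy Il1r2 was 0.06, 0, 0.06 and 0 TPM in control and 4.68, 1.18 and 1.98 TPM at 3 DPI (1.69 on the log2 scale, SE 0.375, adjusted p = 3.02e-05). The added 1 TPM holds down the fold change of so low a gene, which was 4.21 at 3 DPI with a pseudocount of 0.1, against 2.51 for Il1rap. Il1r2 was called at 3, 7 and 14 DPI, at 1.22 on day 7 and 1.14 on day 14. With a pseudocount of 0.1 Il1r2 and Il1rap were also called at 28 DPI, as were 37.6% of all genes. At 7 DPI the Il1r2 call was lost with all libraries kept (0.98) and among rats numbered over 90 alone (0.77).

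Il1rl1, which encodes the IL-33 receptor ST2, had the largest log2 fold change of the members at 3, 7 and 14 DPI, but not at 28 DPI. It was 0.20, 0.13, 0.07 and 0 TPM in control muscle and 67.13, 86.88 and 28.48 TPM at 3 DPI, a log2 fold change of 5.68 (SE 0.322, adjusted p = 5.62e-29). The 8 muscles at 7 DPI ran from 19.61 to 51.92 TPM with a median of 34.3 (4.96 on the log2 scale). At 14 DPI they held 3.05, 2.72, 3.82 and 4.71 TPM, and the step from 7 to 14 DPI was the steepest of any member, at -2.92 (SE 0.258, adjusted p = 7.31e-15). At 28 DPI they held 1.10, 1.02, 1.04 and 1.35 TPM, above every control muscle, with a log2 fold change of 0.95 (SE 0.298, adjusted p = 0.00342) that was under the size required. With a pseudocount of 0.1 Il1rl1 was called at 28 DPI, as were 37.6% of all genes. Only 1.69% of its 3 DPI rise in mean TPM was left at 28 DPI, the least of the 9 tested members, against 28.5% for Il33 and 33.9% for Il1r2.

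Casp1, the protease that cleaves the IL-1 beta and IL-18 precursors, had a level of its own in control muscle (2.65, 2.90, 3.01 and 2.03 TPM). It was 35.13, 31.99 and 28.42 TPM at 3 DPI, a log2 fold change of 3.17 (SE 0.202, adjusted p = 5.80e-26). Of its 3 DPI rise in mean TPM, 46.2% was left at 7 DPI, less than for any other tested member except Il18 (31.7%). It was called on each day, with 2.18, 1.41 and 1.23 at 7, 14 and 28 DPI. The muscles at 28 DPI held 5.79, 7.03, 8.84 and 8.86 TPM. With size factors the values at 14 and 28 DPI were 0.89 and 0.72, which ended both calls.

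**Figure D2:**
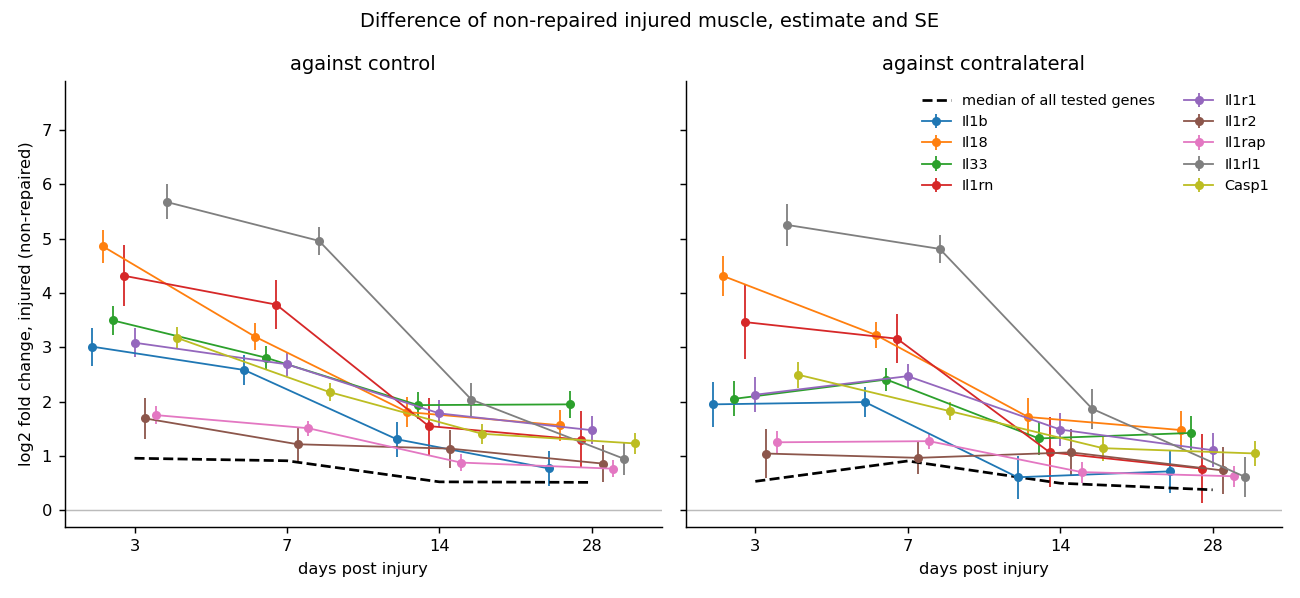
Log2 fold change (± SE, limma on log2(TPM + 1)) of the 9 tested members in non-repaired injured muscle by DPI, against control muscle on the left and against contralateral muscle on the right, with the median of all tested genes as a dashed black line. Il1rl1 and Il18 started highest, at 5.68 and 4.86 against control, and at 28 DPI Il33 was the highest on this scale at 1.95, an order that changed with the pseudocount.

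Across the steps between days, no member was called higher. From 7 to 14 DPI 4 of 9 were called lower (Il1rl1, Il1rn, Il18 and Il1b), where 6.82% of all genes were called and 6.1% were lower. With size factors Il1b was at -0.95 and lost its call, and the share of all calls that were higher changed from 10.6% to 60.7%. The non-repaired rats at 14 DPI were all numbered over 90, and against 7 DPI rats of that range alone only Il1rl1 (-2.45) and Il1rn (-1.13) were called, with 2.8% of all genes, while Il18 and Il1b were at -0.88 and -0.86. From 14 to 28 DPI Il1rl1 alone was called, at -1.09 (SE 0.298, adjusted p = 0.0434), where 0.459% of all genes were called and 0.353% were lower. That call was lost when any of the 4 muscles at 14 DPI or any of 3 of the 4 at 28 DPI was left out. The rats at 28 DPI came from a number range of their own, which cannot be told apart from the day. Between 3 and 28 DPI 7 members were called lower, with 28.8% of all genes called and 24.3% lower, and with size factors the higher share of all calls changed from 15.7% to 39.8%. Il1rl1 differed most, at -4.72, followed by Il18 at -3.29 and Il1rn at -3.02, and Il1b, Casp1, Il1r1 and Il33 were at -2.24, -1.94, -1.61 and -1.54. Il1rap and Il1r2, at -0.99 and -0.83, were not called.

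Ratios of ligand, receptor and inhibitor were also taken within each muscle, and Il1rl1 to Il33 changed most clearly with time. The ratio of Il1rl1 to Il33 TPM averaged 0.019 in control muscle and 0.868 and 0.817 at 3 and 7 DPI in non-repaired muscle. It was 0.162 at 14 DPI and 0.052 at 28 DPI, close to the 0.029 to 0.051 of the contralateral groups of non-running rats. In graft-filled muscle it was 0.797, 1.18, 0.263 and 0.043 on the same days. The ratio of Il1rn to Il1b was 2.31, 2.64, 1.19 and 1.68 in non-repaired and 3.20, 2.92, 1.59 and 2.20 in graft-filled muscle. These means rested on single muscles later on, since the non-repaired muscles had ratios of 0.665, 1.16, 0.612 and 2.33 at 14 DPI and 0.992, 1.07, 0.870 and 3.80 at 28 DPI. The ratio of the decoy Il1r2 to Il1r1 was 0.190, 0.105, 0.190 and 0.168 in non-repaired muscle and 0.021 in control. In graft-filled muscle it was 0.106, 0.078, 0.291 and 0.227. Contralateral muscle of non-running rats had 0.168, 0.132, 0.045 and 0.066 in the non-repaired arm and 0.401, 0.109, 0.059 and 0.053 in the graft arm. At 3 and 7 DPI the ratio was therefore not particular to the injured leg. The 3 DPI mean of non-repaired muscle rested on 1 muscle, with ratios of 0.427, 0.044 and 0.099. The decoy was the minor receptor transcript in each of these groups. Ratios were taken only where the divisor reached 0.5 TPM, and they were given no test.

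**Figure D3:**
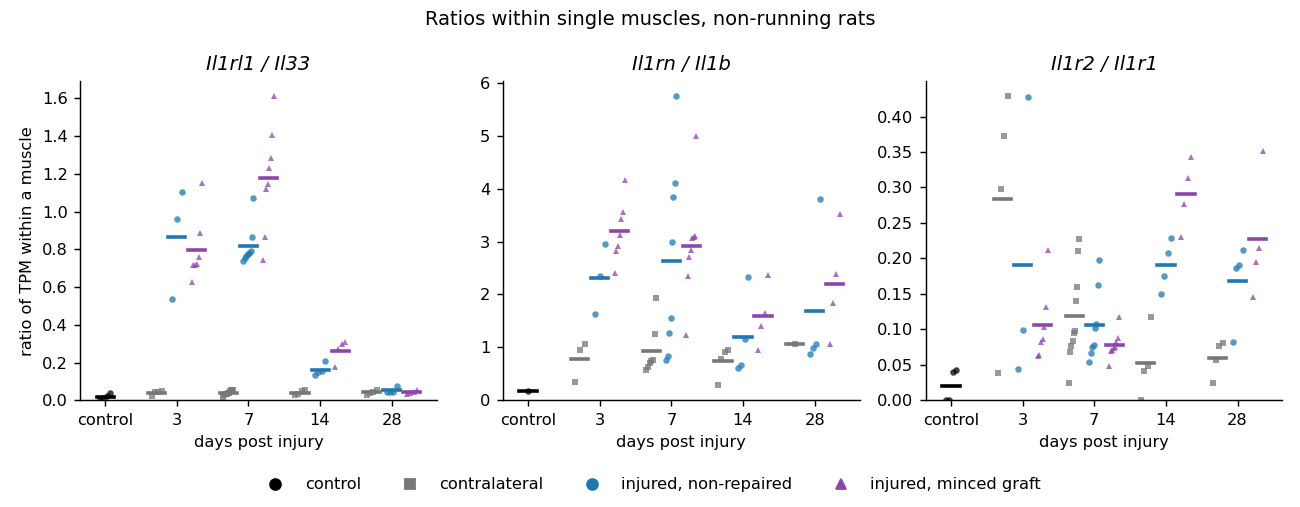
Ratios of TPM within each muscle for Il1rl1 to Il33, Il1rn to Il1b and Il1r2 to Il1r1, by DPI, in control, contralateral, non-repaired and graft-filled muscle, with 1 point per muscle and a bar at the mean. The Il1rl1 to Il33 ratio was near 1 at 3 and 7 DPI and close to contralateral values at 28 DPI.

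The other genes of the pathway were taken by list. Among the other IL-1 family ligands, receptors and binding proteins, 3 of 5 tested genes were called higher at 3 DPI and none lower, with a median of 1.14, close to the 0.96 of all genes. Il18bp, the secreted inhibitor of IL-18, went from 4.59 to 35.9 TPM (2.69 on the log2 scale), the ligand Il36b changed by 1.97, and the inhibitory receptor Sigirr by 1.14. At 28 DPI Il18bp alone was called, at 1.11. Of 19 tested genes of the receptor's signalling chain, 13, 10, 6 and 5 were called higher at 3, 7, 14 and 28 DPI and none lower, with medians of 1.21, 1.05, 0.68 and 0.59. Over all genes 48.3%, 45.6%, 25% and 21.1% were called higher, with medians of 0.96, 0.91, 0.53 and 0.52, close to the list from 7 DPI on. Myd88, the adaptor, rose by 3.40 at 3 DPI, the NF-kB cofactor Nfkbiz by 3.11 and the inhibitory kinase Irak3 by 2.96. The smallest called changes were Tollip at 1.03, Ikbkg at 1.12 and Nfkbia at 1.20. At 28 DPI the called genes were Irak3 (1.76), Myd88 (1.17), Irak4 (1.09), Nfkb2 (1.09) and Map3k7 (1.08).

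Of 11 tested inflammasome genes, 9, 8, 5 and 4 were called higher on those days and none lower, with medians of 1.95, 1.59, 0.83 and 0.51. At 3 DPI Ninj1, which ruptures the membrane in lytic death, rose by 4.81, from 10.4 to 320.4 TPM, and the inflammasome adaptor Pycard by 4.46, from 1.68 to 58.7 TPM. Casp4 rose by 2.79, the sensor Nlrp3 by 2.74 and the pore former Gsdmd by 2.76, and the smallest called changes were Nlrp1a at 1.5, Panx1 at 1.84 and Nlrc4 at 1.91. At 28 DPI Pycard (2.39), Ninj1 (2.08), Casp4 (1.78) and Panx1 (1.74) were called, and Nlrp3 was at 0.44. Of 18 tested genes known to respond to IL-1, 16, 13, 6 and 4 were called higher on the same days and none lower, with medians of 2.13, 1.5, 0.78 and 0.45. The chemokine Ccl2 rose by 6.11 at 3 DPI, from 1.03 to 136.2 TPM, Ccl20 by 3.36, the adhesion molecule Icam1 by 3.24 and the cytokine Il6 by 3.18. The smallest called changes were Nos2 at 1.15, Ptgs2 at 1.20 and Cxcl2 at 1.31. At 28 DPI Ccl2 (1.5), Icam1 (1.40), Ptges (1.24) and Sele (1.21) were called, while Il6 was at 0.20 and Cxcl1 at 0.35. These genes also respond to other cytokines, and the shares of all genes called stand above for the same comparisons. At 28 DPI the medians of the inflammasome and IL-1 response lists were below the 0.52 of all genes.

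Markers of other cells also changed after injury, and not all of them followed the course of the members. Summed TPM of monocyte and macrophage markers was 25.22 to 50.88 in control and 4945.16 to 6342.48, 751.01 to 3390.12, 563.33 to 696.7 and 319.91 to 885.69 in non-repaired muscle at 3, 7, 14 and 28 DPI. All 10 of these markers were called higher on each day. The neutrophil sum was 2.06 to 6.51 in control and 84.89 to 288.26, 26.15 to 68.08, 14.62 to 23.35 and 8.59 to 24.15 in injured muscle, with 6, 4, 2 and 0 of 6 tested markers called. Mpo, made by neutrophil precursors, was near 0 in both. The mast cell sum, from cells that carry ST2, was 6.49 to 8.54 in control and 33.02 to 58.79, 47.73 to 76.74, 48.74 to 68.3 and 29.17 to 38.28 in injured muscle, with 5, 6, 7 and 6 of 8 tested markers called, and Mcpt1 and Mcpt2 were at 0 in control. Its means were 43.1 TPM at 3 DPI and 56.7 TPM at 14 DPI. The sum of T cell and innate lymphoid markers was 4.06 to 4.78 in control and 201.86 to 256.84, 63.74 to 157.36, 48.77 to 61.68 and 29.03 to 45.05 in injured muscle, with 6, 6, 5 and 2 of 7 tested markers called. At 3 DPI Cd4 and Cd8a made up most of this sum (means of 137.96 and 83.39 TPM), while Cd3e and Cd3d were at 2.55 and 2.11 TPM, and Foxp3, which defines regulatory T cells, had means of 1.13 TPM in control and 0.177 TPM at 3 DPI. Fibroblast markers were called in 9, 9, 10 and 10 of 10 and endothelial ones in 7, 8, 5 and 3 of 10. Over all genes 52.6%, 48.1%, 25.5% and 21.3% were called on these days, so the endothelial count at 28 DPI was near that share. The mean fibroblast sums of non-repaired muscle were 6589, 10363, 5605 and 3656 TPM. The mean muscle fibre sum went from 201893 TPM in control to 46990 at 3 DPI and 163104 at 28 DPI. The part of each cell type in the members' changes was not tested.

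The second comparison set injured muscle against contralateral muscle, which shares the rat series and, in part, the rats. Of the non-repaired muscles, 2 of 3 at 3 DPI, 4 of 8 at 7 DPI and 2 of 4 at 14 and 28 DPI had their own contralateral muscle, and of the graft-filled ones 2 of 7, 6 of 8, 2 of 4 and 2 of 4. At 7 DPI all 4 non-repaired contralateral muscles came from rats numbered over 90, and among those rats alone 8 members were called, with 44% of all genes and log2 differences of 4.34 for Il1rl1 and 2.72 for Il18. In non-repaired muscle 9, 8, 6 and 4 members were called higher at 3, 7, 14 and 28 DPI, where 38.2%, 47.4%, 21.1% and 13.3% of all genes were called and 32.3%, 45.3%, 20.9% and 13.1% were higher. Size factors changed the share of calls that were higher from between 84.5% and 99.2% to between 59.3% and 82.7%. The 4 called at 28 DPI were Il18 (1.48), Il33 (1.43), Il1r1 (1.11) and Casp1 (1.05). At 3 DPI the smallest was Il1r2, at 1.05 (SE 0.449, adjusted p = 0.0316), where 1 injured muscle at 1.18 TPM lay below the contralateral muscle of another rat at 1.38 TPM. Size factors ended the calls of Il1r2 and Il1rap at 3 DPI (0.77 and 0.82), of Casp1 and Il1rap at 7 DPI (0.88 and 0.54), of Casp1 and Il33 at 14 DPI (0.62 and 0.73), and of Casp1 and Il1r1 at 28 DPI (0.68 and 0.79). At 14 DPI the count was 3 without 1 of the 2 contralateral muscles, the second of the non-repaired arm. In graft-filled muscle 8, 8, 9 and 8 members were called higher, where 44%, 46.2%, 26.1% and 19.1% of all genes were called and 37.2%, 42.9%, 25.6% and 18.8% were higher. Il1r2 was not called at 3 and 7 DPI (0.71 and 0.96) and Il1rl1 not at 28 DPI (0.73, adjusted p = 0.0745). With size factors the counts at 14 and 28 DPI were 3 and 4, and the 14 DPI count was 5 without 1 of the 2 contralateral muscles, the first of the graft arm.

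Contralateral muscle was itself compared with control, since it is the usual reference for the injured leg. Over all days, 0 of 9 members were called by limma, with 1.39% of all genes called and 4 members at an unadjusted p under 0.05. With a pseudocount of 0.1 the count was 4, with 6.42% of all genes called. By day it was then 7, 4, 3 and 1, with 20.2%, 5.06% and 2.99% of all genes at 3, 7 and 28 DPI and 576 of 11328 genes at 14 DPI. Il1rn was 0.07 to 0.12 TPM in control and 0.22 to 2.02 TPM in the 34 contralateral muscles, running rats included. It was the 1 member of 9 without overlap there, as were 2.32% of all genes. Il33 differed by 0.80 (adjusted p = 0.00152) and Casp1 by 0.43 (adjusted p = 0.0238), both under the size required. By day, a split chosen after seeing the data, 3 members were called higher at 3 DPI, with 7.09% of all genes. They were Il33 at 1.48 (SE 0.249, adjusted p = 9.77e-07), Il1b at 1.15 (SE 0.324, adjusted p = 0.00161) and Il1rn at 1.15 (SE 0.523, adjusted p = 0.0467). At 7, 14 and 28 DPI 0 were called, with 1.04%, 1.03% and 0.512% of all genes called in either direction and 2, 1 and 1 members at an unadjusted p under 0.05.

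The 4 contralateral muscles at 3 DPI were not alike. Il33 was 25.20 and 9.03 TPM in the non-repaired arm and 13.27 and 19.23 TPM in the graft arm, all above the highest control muscle at 6.30 TPM. In this comparison 6 of 9 members did not overlap, but neither did 55.4% of all genes. Il1b was 4.22, 0.34, 2.04 and 1.91 TPM, and the muscle at 0.34 TPM, of rat 17, lay inside the control range. The neutrophil marker sum of the same muscles was 111.65, 9.11, 110.04 and 110.28 TPM, so rat 17 was low in both. Rat 17 was also lowest for the macrophage sum (281.03, 109.31, 204.24 and 250.5 TPM). The same held for the fibroblast sum (2561.17, 1085.97, 1525.63 and 2132.99 TPM). The part of any cell type in the difference was not tested. Without rat 17 there were 5 calls and without rat 10 there was 1. With size factors there was 1 call, Il1b at 1.07, and Il33 was at 0.98. In the 4 contralateral muscles of running rats at 3 DPI, which were outside this comparison, Il1b was 1.22, 2.92, 1.81 and 2.33 TPM and Il33 was 14.64, 18.10, 11.07 and 16.77 TPM. All 9 members exceeded every control muscle there, as did 47.5% of all genes, and 49% did not overlap in either direction. The neutrophil sums of these muscles were 116.43, 169.73, 60.48 and 118.06 TPM. Between 3 and 28 DPI in contralateral muscle, Il1b alone was called, at 1.19 (SE 0.324, adjusted p = 0.00270), with 1.71% of all genes called higher at 3 DPI, and the call was lost without rat 10.

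**Figure D4:**
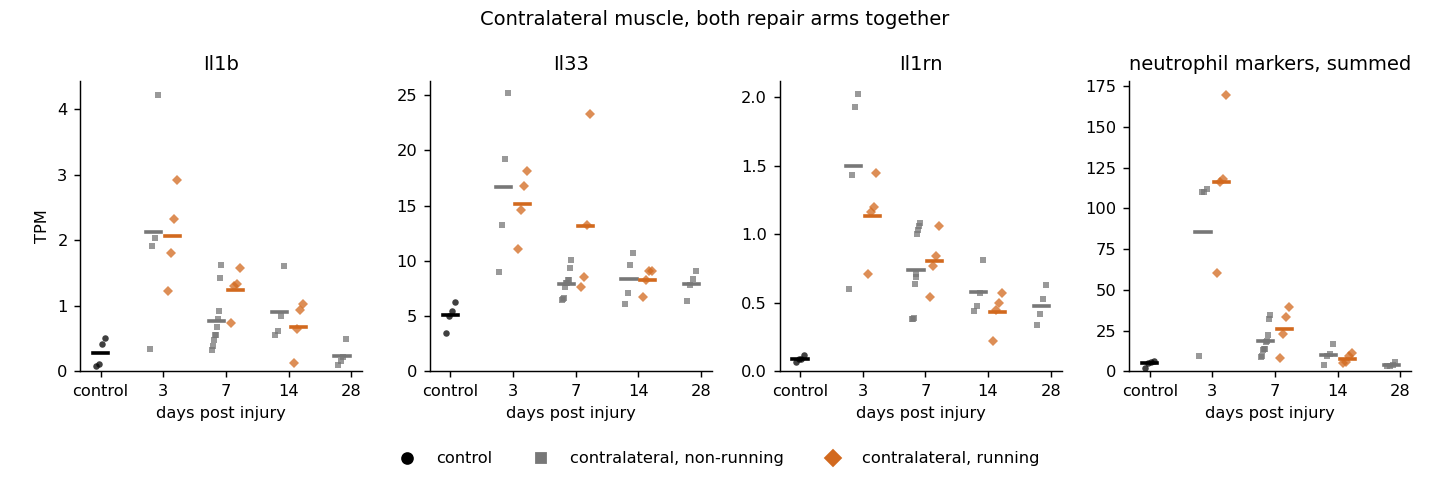
TPM of Il1b, Il33 and Il1rn and summed TPM of neutrophil markers in control muscle and, by DPI, in contralateral muscle. Non-running and running rats are drawn apart and both repair arms together, with 1 point per muscle and a bar at the mean. At 3 DPI Il33 was 9.03 to 25.20 TPM in the 4 muscles of non-running rats, above the 3.50 to 6.30 TPM of control. Later days of non-running rats lay nearer to control.

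The third question was whether the graft changed the family. Against non-repaired muscle, limma called 0 of 9 members in graft-filled muscle on each of the 4 days. The shares of all genes called were 0.00883%, 0.0883%, 0.0265% and 0%, and 1, 5, 0 and 0 members had an unadjusted p under 0.05. The difference nearest to a call was Il1rl1 at 7 DPI, at 69.1 ± 22.9 TPM (SD, n = 8) with the graft and 35.2 ± 12.9 TPM (SD, n = 8) without. It was 0.97 on the log2 scale (95% interval 0.55 to 1.39, adjusted p = 0.00255), which passed the p but not the size. The graft-filled muscles ran from 40.09 to 112.18 TPM with a median of 65.39 and the non-repaired ones from 19.61 to 51.92 TPM with a median of 34.3, so that the groups overlapped. Il18 differed by 0.60 (adjusted p = 0.0451), Il1rap by 0.37 (adjusted p = 0.0295) and Il33 by 0.48 (adjusted p = 0.0682). The Il1b difference was 0.03, with an interval of -0.43 to 0.49. The count became 1 when any of the non-repaired muscles of rats 11, 12, 19 and 20 or the graft-filled muscles of rat 24 and of 2 rats over 90 was left out.

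The 7 DPI muscles came from rats of 2 ranges of numbers, under 33 and over 90, and what the numbers stand for is not given. In non-repaired muscle, Il1rl1 was 49.82, 44.09, 40.81 and 51.92 TPM in rats under 33 and 27.80, 23.57, 19.61 and 24.14 TPM in rats over 90, with no overlap. With the graft it was 82.36, 67.13, 112.18 and 49.80 TPM in rats under 33 and 40.09, 54.77, 82.92 and 63.64 TPM in rats over 90. The graft difference in Il1rl1 was 0.67 (SE 0.315, adjusted p = 1.0) among rats under 33 and 1.27 (SE 0.249, adjusted p = 0.000538) among rats over 90. The second of these was a call, as was the 1.32 obtained with all libraries kept. Among rats over 90, where 1.12% of all genes were called, Il1rn was called too, at 1.03 (SE 0.367, adjusted p = 0.0456). The macrophage marker sum was 2159, 2142, 2953 and 3390 TPM in the non-repaired muscles of rats under 33 and 1726, 1564, 876 and 751 TPM in those over 90. With the graft the macrophage sum was 3447, 2707, 4846 and 2735 TPM in rats under 33 and 2623, 2265, 3289 and 2904 TPM in those over 90. It overlapped the non-repaired values in rats under 33 and did not in rats over 90. Its part in the Il1rl1 difference was not tested. In non-repaired muscle Il33 was likewise higher in rats under 33 than over 90, at 51.58 to 67.69 and 22.49 to 36.98 TPM. So were Il18 (13.78 to 25.63 and 5.75 to 11.37 TPM) and Il1b (6.88 to 12.73 and 4.37 to 5.20 TPM), with no overlap. Il1r1 (15.5 to 20.38 and 7.95 to 14.14 TPM) and Casp1 (17.16 to 24.80 and 9.10 to 14.51 TPM) also separated, as did Il1r2 (1.37 to 3.79 and 0.68 to 0.81 TPM), and Il1rn (10.97 to 62.94 and 3.66 to 13.04 TPM) and Il1rap overlapped. In all, 7 of 9 members separated the ranges, as did 24.7% of all genes, and 17.9% were higher in rats under 33.

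At 28 DPI the widest graft difference was in Il1rn, at 0.99 (95% interval -0.05 to 2.03). The graft-filled muscles held 1.60, 7.15, 3.27 and 7.93 TPM against 1.27, 0.80, 1.27 and 4.67 TPM without graft, and the groups overlapped. The groups did not overlap for Il1b at 28 DPI (1.51 to 2.99 TPM with the graft and 0.75 to 1.46 without), as for 0.874% of all genes, with a difference of 0.51 (95% interval -0.13 to 1.16). At 14 DPI they did not overlap for Il1r2 (1.44 to 3.41 and 1.18 to 1.42 TPM) and Il1rap (2.92 to 4.20 and 2.35 to 2.75 TPM), as for 7.92% of all genes, with differences of 0.48 and 0.27. At 3 and 7 DPI 0 members were free of overlap, with 5.44% and 0.132% of all genes. The graft differences in the injury response, tested as an interaction with the contralateral muscle, gave 0 calls by limma on each day, with 0% of all genes called and 0, 2, 0 and 0 members at an unadjusted p under 0.05.

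**Figure D5:**
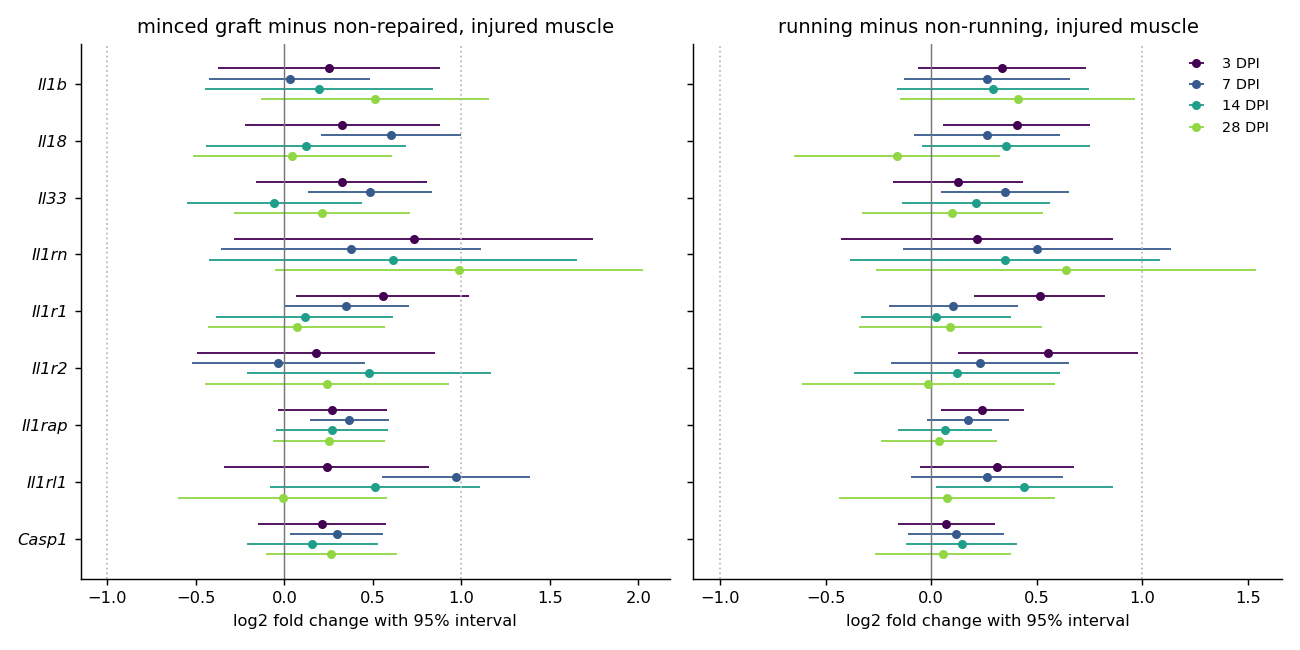
Log2 differences with 95% intervals (limma on log2(TPM + 1)) of the 9 tested members between graft-filled and non-repaired injured muscle and between running and non-running injured muscle, by DPI. Most intervals include 0, and the Il1rl1 graft difference at 7 DPI, 0.97, had the interval whose lower limit, 0.55, lay farthest above it.

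Running was compared within injured muscle over both arms. Limma called 0 of 9 members on each day, with 0.0177%, 0%, 0% and 0.309% of all genes called and 4, 1, 1 and 0 members at an unadjusted p under 0.05. The members below that p at 3 DPI were Il1r1 at 0.51 (95% interval 0.20 to 0.82, adjusted p = 0.0722), Il1r2 at 0.55, Il18 at 0.41 and Il1rap at 0.24, each higher in running rats. In non-repaired muscle of running rats at 3 DPI, Il1r1 ran from 21.89 to 44.72 TPM with a median of 34.33, against 10.96, 26.60 and 20.02 TPM without running. In graft-filled muscle it was 32.7 ± 7.98 TPM (SD, n = 6) with running and 28.7 ± 10.8 TPM (SD, n = 7) without. The groups overlapped in both arms. In the contralateral muscles limma called 0 members at 3, 7 and 14 DPI, with 0.265%, 0.00883% and 0% of all genes called and 0, 1 and 0 members at an unadjusted p under 0.05. The running differences in the injury response, tested as an interaction, gave 0 members by limma at 3, 7 and 14 DPI, with 0.159%, 0% and 0% of all genes called and 1, 0 and 0 members at an unadjusted p under 0.05. At 28 DPI, 2 graft-filled muscles of running rats held 41.65 and 2.70 TPM of Il1rn, and the non-repaired ones 1.59 and 1.95 TPM.

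Over all 31 groups, the order of levels was led by 3 DPI muscles for 9 of the 10 members. Il1b was highest in graft-filled and non-repaired muscle of running rats at 3 DPI, at 14.5 ± 6.78 and 14 ± 6.04 TPM (SD, n = 6 and 8), followed by graft-filled muscle without running at 12.1 ± 5.79 TPM (SD, n = 7). Il18 was led by the same groups at 65.6 ± 8.26, 58.7 ± 11.7 and 53.2 ± 13.8 TPM. For Il33 the first 3 were within 84.3 ± 14.5 to 81.3 ± 12 TPM, and for Casp1 within 37.7 ± 4.84 to 35.1 ± 4.75 TPM. In each of these 4 members the neighbours at the top differed by less than their SDs. In Il1rl1, graft-filled muscle at 7 DPI (69.1 TPM) stood next after the running groups at 3 DPI (81.7 and 73.5 TPM). Il1a was led by graft-filled muscle of running rats at 7 DPI, at 0.255 TPM. Control was the lowest group for Casp1, Il1r1, Il1r2, Il1rl1, Il1rn and Il33.

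The members also resembled each other and other genes in their group means. Pearson's r of mean log2 levels over the 31 groups, which share libraries and the injury itself, ran from 0.829 (Il1r2 and Il1rl1) to 0.991 (Il1r1 and Il1rap) among the 9 members. The 3 nearest genes were Ppm1h (0.997), Inpp5d and Fyb for Il18, Fam91a1 (0.997), Tmod3 and Iqgap1 for Il1r1, and Anpep (0.994), Mnda and Irak3 for Il33. For Il1rl1 they were Hrasls5 (0.993), Kif21b and Kiaa0895l, for Il1rap Stambpl1 (0.993), Pfkp and Aida, and for Il1rn Spn (0.991), Itgb2 and Ccl3. Il1b was nearest to Cklf (0.982), Ormdl2 and Napsa. Casp1 was nearest to Lilrb3a and Lilrb3b (0.997), near-identical copies whose reads may have been split between them, and to Skap2.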

How the data were processed

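RNA of rat TA muscle was sequenced, and the authors quantified transcripts with Kallisto (version not given in the sources used here) at default parameters against rat build 6.0 and deposited gene-level TPM. The submitters' processing notes also name DESeq, and counts were not used here. From the deposited TPM, 1 incomplete row was left out, libraries with fewer than 7000 symbols above 1 TPM were dropped, and repeat libraries of 1 muscle (2 muscles) were averaged. Genes with a group mean of at least 1 TPM (11328) were tested with limma 3.58.1 (trend) on log2(TPM + 1), in 1 model of 31 groups and 114 muscles with 83 residual degrees of freedom, and Benjamini-Hochberg adjusted over all of them. Fold changes on this scale understate those of low genes. A call needed an adjusted p under 0.05 and a log2 fold change beyond 1, after the study's thresholds. Replicates were muscles, and 9 samples whose labels conflict entered no group. The same-rat muscles of different groups deviated with a mean correlation of 0.0944 (15 of 34 pairs over 0.1), and the paired fit took the rat as a block. The script was tested on simulated data. Alternatives were size factors, pseudocounts, filters, rat numbers, the block and leaving out muscles. Members and lists were chosen with earlier results of these data known. Named genes outside the members were the 3 largest and 3 smallest called changes of each list, at 3 and 28 DPI, and the 3 nearest genes to each member, which for Il1r2 are not reported here. Il6, Nlrp3, Gsdmd and Cxcl1, and from the cell marker lists Mpo, Mcpt1, Mcpt2, Cd4, Cd8a, Cd3e, Cd3d and Foxp3, were named after their values were seen. The software was R 4.3.3, Python 3.11.15 and pandas 2.3.3.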

Additional observations from a re-analysis of the deposited data

Results flagged for a closer look

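Among the groups of 4 to 10 muscles, over the 9 tested members, 6 (4.17%) held a muscle whose gap to its neighbour, as a share of the group's range on log2(TPM + 1), exceeded Dixon's limit. Chance alone gives this in about 1 in 20 groups. Levels here are in TPM and gaps on the log2 scale unless stated. Rat 31, in running non-repaired muscle at 7 DPI, was highest for Il1r1 (28.8 against 13.3 TPM, gap 0.867 of the range) and for Casp1 (27.8 against 16.3 TPM, gap 0.842). Il33 was highest in the contralateral muscle of 1 non-repaired rat, replicate 6, at 7 DPI (7.97 against 6.64 TPM, gap 0.883). Il1r2 was highest in 1 running non-repaired muscle, replicate 2, at 14 DPI (3.00 against 1.76 TPM, gap 0.846). Il1rap was highest in 1 graft-filled muscle, replicate 2, at 14 DPI (4.20 against 3.09 TPM, gap 0.850) and in running graft-filled rat 25 at 3 DPI (9.05 against 7.82 TPM, gap 0.720). With gaps taken on TPM itself these 6 and 3 more passed the limit. The 3 were Il1rn in 1 running non-repaired muscle, replicate 7, at 3 DPI (135.29 against 47.57 TPM, gap 0.729), Il1rn in non-repaired rat 82 at 28 DPI (4.67 against 1.27 TPM, gap 0.879) and Il33 in rat 31 (111.68 against 53.1 TPM, gap 0.839).

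The 9 samples without a group, which no comparison used, often lay above the highest control muscle. This held in 8 samples each for Il33, Il1rn, Il1r2, Il1rl1 and Casp1, in 6 each for Il1b and Il18, and in 5 each for Il1r1 and Il1rap.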

How the results depend on the processing

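No called member changed sign under any alternative run. With an adjusted p under 0.05 alone, the members called became 9 for non-repaired muscle against control at 28 DPI, 3 for graft against non-repaired at 7 DPI, 2 for contralateral against control over all days, 7 at 3 DPI, 5 for contralateral 3 against 28 DPI, 4 for 7 against 3 DPI and 8 for 14 against 7 DPI. With a pseudocount of 0.1 they became 9 and 7 for non-repaired against control and contralateral at 28 DPI (37.6% and 24.7% of all genes), 4 for contralateral against control over all days and 7, 4, 3 and 1 by day, 3 for contralateral 3 against 28 DPI and 2 for 7 against 3 DPI. With size factors they became 2 for non-repaired against contralateral at 28 DPI, 3 and 4 for graft against contralateral at 14 and 28 DPI and 1 for contralateral against control at 3 DPI. With all libraries kept they became 1 for graft against non-repaired at 7 DPI, 4 for 7 against 3 DPI, 0 for 28 against 14 DPI and 0 for contralateral 3 against 28 DPI. Rats over 90 alone gave 2 for the graft at 7 DPI and, added after seeing the data, 2 for 14 against 7 DPI, and running rats pooled in gave 2 for 7 against 3 DPI. For these changes the cause was not tested beyond what each setting alters by construction.

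Leaving out 1 muscle at a time (100 of 114) gave 9 to 9, 9 to 9, 8 to 8 and 4 to 6 members against control at 3, 7, 14 and 28 DPI, 7 to 9, 8 to 9, 3 to 6 and 3 to 4 against contralateral, and 8 to 8, 8 to 9, 5 to 9 and 6 to 8 for the graft against contralateral. It gave 0 to 1 for graft against non-repaired at 7 DPI and 0 to 0 on the other days, 0 to 0 for running and for contralateral against control over all days and at 7, 14 and 28 DPI, and 1 to 5 at 3 DPI. The steps gave 1 to 3 (7 against 3), 4 to 5 (14 against 7), 0 to 1 (28 against 14) and 7 to 8 (28 against 3), and contralateral 3 against 28 DPI gave 0 to 3 (3 without rat 17, 0 without rat 10, 2 without rat 13 or rat 74). With the rat as a block (within-rat correlation 0.0260) no call changed, and the counts against control stayed at 9, 9, 8 and 5.

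TPM keeps no depth, so the counting error, which is widest for low members such as Il1a and Il1r2, could not be estimated. Groups of 2 to 4 muscles give wide intervals, and a missed p does not show equal levels.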

Other observations

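The 9 samples without a group have labels that conflict with each other. Of these, 8 were the libraries of running rats 77, 78, 79 and 80 at 28 DPI, so that no contralateral muscle of running rats entered a group on that day. In these rats, libraries titled contralateral but labelled injured held 20.04, 17.35, 18.59 and 21.66 TPM of Il33 and 2.39, 2.09, 2.71 and 3.61 TPM of Il18. Those titled injured but labelled contralateral held 8.56, 6.34, 6.23 and 7.04 TPM of Il33 and 0.11, 0.64, 0.71 and 0.57 TPM of Il18. The other was a contralateral library of rat 11, labelled as day 3 where the other libraries of that rat are labelled as day 7, and it held 16.26 TPM of Il33 and 1.68 TPM of Il1b. No group was inferred from these values.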
